A study of Gallus gallus with 6 samples.

Results

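The lens transcription factors examined here were PAX6, PROX1, SOX1, SOX2, MAF, HSF4, PITX3, SIX3, SIX4 and GATA3, a set of 10 regulators with known roles in making the lens. Members were the rows of the deposited RNA-seq table whose gene name equals one of these 10 symbols. A row was found for 9 of the 10 genes, among 17340 loci in all, and each row names 1 gene. PITX3, a homeodomain factor needed for the mouse lens, had no row under that name and is not analysed here. Values are FPKM, mapped fragments per length of transcript scaled to the library's total, so levels can be set side by side between genes. The read depth behind them is unknown.

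The cells were primary lens cells from White leghorn chick embryos (Gallus gallus) at embryonic day 10, grown on dishes coated with laminin. DMOG libraries 1, 2 and 3 came from cells given 1 mM dimethyloxalylglycine for 4 h, and untreated libraries 1, 2 and 3 came from cells of the same kind without it. The labels name no genetic change in either group and no vehicle for the untreated cells. DMOG inhibits the prolyl hydroxylases that mark HIF1α for breakdown, and the comparison asks which transcripts differ once HIF1α is stabilised. DMOG also inhibits other prolyl hydroxylases, so a difference between the groups is one between treated and untreated cells and not between cells with and without HIF1α. The methods call the libraries biological triplicates, the labels do not say which culture each came from, and p-values measure the spread between these libraries.

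A small circle of DNA-binding proteins builds the vertebrate lens. PAX6, SIX3 and the SOXB1 proteins SOX1, SOX2 and SOX3 act in the early eye and lens ectoderm, and in the chick PAX6 and SOX2 bind together at the δ-crystallin enhancer. Large MAF proteins, PROX1, HSF4 and GATA3 act later, when epithelial cells leave the cell cycle, elongate into fibers and fill with crystallins.

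The labelled cell type was checked against marker genes. The FPKM summed over the 11 of 12 lens markers that were found, PAX6 among them, ranged from 1065 to 1701 in the DMOG libraries and from 1123 to 1738 in the untreated libraries. Most of this sum came from CRYAA, CRYAB and a locus that joins ASL1, ASL2 and GUSB. None of the 11 was listed at 0 throughout, but MIP was listed at 0 in DMOG library 3 and untreated library 1. CRYBB1 was also low, with means of 2.41 FPKM with DMOG and 2.68 FPKM without it. A joined locus that holds CDH1 stood between 1.48 and 3.48 FPKM. The 11 retinal and neural markers found summed to at most 4.69 FPKM in any library, and 6 of them were listed at 0 throughout, OTX2 and NEUROD1 included. ELAVL4, also on that list, was present in every library, at 1.09 to 3.69 FPKM. Of the 4 pigment epithelium markers found, 1 was listed at 0 throughout, and RPE65 stood between 1.03 and 4.12 FPKM in every library. Of the 6 erythroid markers found, the 5 globin genes were listed at 0 throughout, and ALAS2, an enzyme of heme synthesis, stood between 8.12 and 12.91 FPKM in every library. EGLN3, the prolyl hydroxylase gene that is a standard HIF1α target, stood at 57.15, 54.04 and 47.61 FPKM in the DMOG libraries, given here and throughout in the order 1, 2, 3, and at 1.35, 2.06 and 1.87 FPKM in the untreated libraries, which separates the libraries as labelled. SLC2A1, PFKFB3 and BNIP3L, further HIF1α targets, also stood higher in every DMOG library than in any untreated one.

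Of the 9 factors found, SIX4, GATA3 and SOX2 were lower after DMOG, with no overlap between the libraries of the groups. PROX1, PAX6, SIX3 and MAF, the 4 most abundant, showed no difference larger than the spread between replicates. SOX1 and HSF4 were too low to enter the fit. The 3 lower factors passed the limits of the study, a log2 difference of 0.6 or more in size and an unadjusted p under 0.05, in a limma fit on log2(FPKM + 0.5). None of the 7 tested factors had an adjusted p under 0.05 in that fit, against 19 of the 9816 tested loci. An unadjusted p under 0.05 was found for 3 of the 7 factors and for 883 of the 9816 tested loci. The adjustment was that of Benjamini and Hochberg over all tested loci. The study applied its limits to an F-test in edgeR, so the calls here share its limits but not its test.

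These calls are read against the background of the same fit. Of the 9816 loci whose mean over the 6 libraries reached 1 FPKM, 4.97% were lower at the limits and 2.84% were higher. Every DMOG library was below every untreated library at 11.4% of the tested loci, and above every one at 4.47%. Among the 7 tested members the counts were 3 lower and 0 higher, and the 3 lower ones were also the 3 without overlap. SOX2 and GATA3 had means under 1 FPKM with DMOG and entered the fit only through the untreated libraries. The study already names SIX4 and GATA3 among its HIF1α-dependent genes, partly from these libraries, and the members were chosen with earlier results known. The count of 3 is therefore a description of these genes and no support for a shared behaviour. The median log2 fold change was 0.03 over the 7 tested members and -0.13 over all tested loci. Of all loci called, 36.4% were higher, and this share was 56.1% after scaling every library to the same median and 56.2% after quantile normalization. The 3 members passed the limits under both scalings, with SIX4 at -0.99 and -0.93, GATA3 at -1.59 and -1.22, and SOX2 at -1.71 and -1.63 on the log2 scale.

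**Figure D1:**
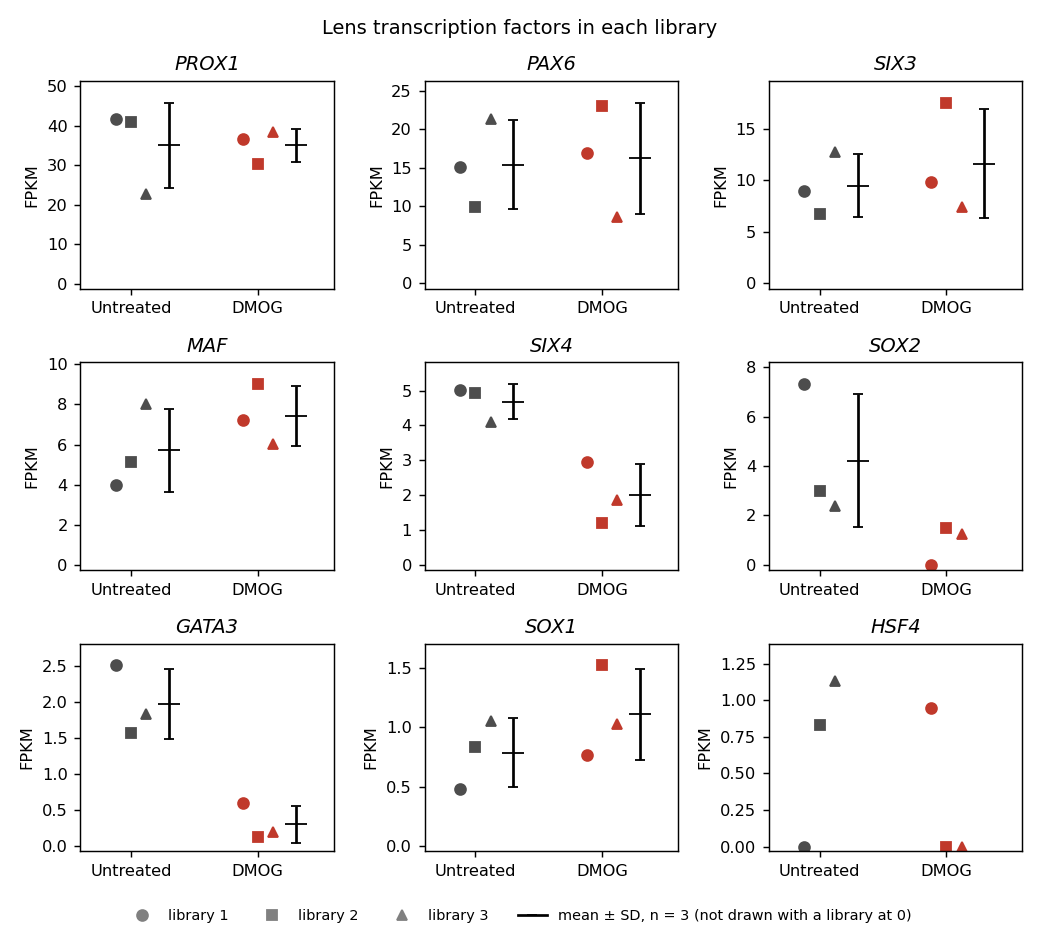
FPKM (vertical axes, each starting just below 0) of the 9 factors in the 3 untreated and the 3 DMOG libraries, ordered by untreated mean. Points are libraries, marked by number, and bars give the mean ± SD (n = 3), left out where a library is listed at 0. SIX4, SOX2 and GATA3 have all DMOG points below all untreated points, while the other 6 factors overlap between the groups.

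In untreated cells the order of the mean levels was PROX1, PAX6, SIX3, MAF, SIX4, SOX2, GATA3, SOX1 and HSF4. PROX1 had a mean of 35.0 FPKM, above 96.5% of the 16319 loci that are not small RNA, and GATA3 a mean of 1.97 FPKM, above 50.1% of them. Most neighbours in this order did not separate. Only PROX1 from PAX6 and GATA3 from SOX1 had untreated ranges without overlap. In the DMOG libraries PROX1 again lay above PAX6, while GATA3 lay below SOX1 in place of above it, and MAF and SIX4, which overlapped in untreated cells, had separate ranges.

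PAX6 is the paired-domain and homeodomain protein without which no lens placode forms. Its level was 16.90, 23.08 and 8.67 FPKM with DMOG, and 15.12, 9.87 and 21.29 FPKM without it. The highest and the lowest PAX6 value both belonged to the DMOG group, and the groups overlapped fully. The means were 16.2 ± 7.23 FPKM with DMOG and 15.4 ± 5.72 FPKM without it (SD, n = 3 each). The log2 fold change was 0.03 with a 95% interval from -0.91 to 0.97 (limma, adjusted p = 0.989), an interval that reaches past the limit of 0.6 on both sides. These libraries therefore do not show that PAX6 was steady. Without DMOG library 2 the value was -0.27, and without untreated library 2 it was -0.25.

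SIX3, a homeodomain factor that acts upstream of Pax6 in the mouse lens ectoderm, resembled PAX6. It stood at 9.88, 17.54 and 7.41 FPKM with DMOG and at 8.94, 6.70 and 12.76 FPKM without it. As for PAX6, DMOG library 2 was highest, followed by untreated library 3 and DMOG library 1. The log2 fold change was 0.24 with a 95% interval from -0.60 to 1.08 (limma, adjusted p = 0.866).

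SIX4 is a further homeodomain protein of the same family as SIX3, whose members work with EYA coactivators. Its level was 2.96, 1.21 and 1.86 FPKM with DMOG, against 5.02, 4.93 and 4.11 FPKM in untreated cells. The untreated libraries lay close together, and the highest DMOG library was below the lowest of them. The mean was 2.01 ± 0.885 FPKM with DMOG and 4.69 ± 0.501 FPKM without it (SD, n = 3 each). SIX4 fell by 1.10 on the log2 scale (SE 0.33, 95% interval -1.87 to -0.34), or 2.15-fold on log2(FPKM + 0.5), with an adjusted p = 0.380 in limma. An exact two-sided permutation test over the 20 divisions of the libraries gave p = 0.1, the smallest it can give with 3 libraries against 3. The call held in all 14 alternatives that tested SIX4, with values from -1.36 to -0.86. SIX4 and SIX3 thus had values on opposite sides of 0, and the difference between the 2 genes was not tested.

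The SOXB1 proteins are HMG-box factors that partner PAX6. SOX2 stood at 7.32, 2.97 and 2.37 FPKM in untreated libraries 1, 2 and 3, and at 1.50 and 1.23 FPKM in DMOG libraries 2 and 3, while DMOG library 1 is listed at 0. Every DMOG library was below every untreated one, but untreated library 1 was far above the other 2 untreated libraries. SOX2 fell by 1.83 on the log2 scale (SE 0.64, 95% interval -3.33 to -0.33), with an adjusted p = 0.461 in limma and p = 0.1 in the exact permutation test. The call rests on the libraries at the 2 extremes. Without DMOG library 1 the log2 fold change was -1.20, and without untreated library 1 it was -1.39, and in neither fit did SOX2 pass the limit on p. Because a library is listed at 0, the size also moves with the pseudocount, from -2.68 at 0.1 FPKM to -1.44 at 1 FPKM.

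SOX1, needed in the mouse for fiber elongation and γ-crystallin expression, had a mean of 1.11 ± 0.381 FPKM with DMOG and 0.787 ± 0.287 FPKM without it (SD, n = 3 each). The libraries read 0.77, 1.52 and 1.03 FPKM with DMOG and 0.48, 0.83 and 1.05 FPKM without it. The groups overlapped, and an exact two-sided permutation test of the means gave p = 0.5. With the filter on low values removed, the log2 fold change was 0.32 with a 95% interval from -0.55 to 1.18. At this level a difference could not be told from the spread between replicates.

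MAF is the large MAF protein that drives fiber elongation in the mouse. Its level was 7.21, 9.02 and 6.05 FPKM with DMOG and 3.99, 5.14 and 8.02 FPKM without it. Untreated library 3 lay inside the DMOG range, and the other 2 untreated libraries lay below it. The log2 fold change of MAF was 0.39 with a 95% interval from -0.31 to 1.08 (limma, adjusted p = 0.740), and MAF was called in none of the 15 alternatives. The value moved with single libraries, to 0.18 without untreated library 1, 0.24 without DMOG library 2 and 0.64 without untreated library 3, where only the limit on p was missed.

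PROX1 is the homeodomain factor that takes mouse fiber cells out of the cell cycle and supports their elongation. Of the 9 factors it had the highest level in every library. It read 36.57, 30.35 and 38.27 FPKM with DMOG and 41.58, 40.89 and 22.67 FPKM without it. The DMOG libraries lay inside the untreated range, and their mean of 35.1 ± 4.17 FPKM was close to the untreated mean of 35.0 ± 10.7 FPKM (SD, n = 3 each). The log2 fold change was 0.05 with a 95% interval from -0.57 to 0.66 (limma, adjusted p = 0.974). This interval was the narrowest among the 7 tested members, but it still reaches past the limit of 0.6 on the upper side. Without untreated library 3 the PROX1 value was -0.24. These libraries therefore do not show that PROX1 was steady either.

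HSF4, the heat shock factor of the lens whose mutations cause human cataract, was barely present. It was listed at 0 in DMOG libraries 2 and 3 and in untreated library 1, and stood at 0.95 FPKM in DMOG library 1 and at 0.83 and 1.13 FPKM in untreated libraries 2 and 3. No group was free of a library at 0, and an exact two-sided permutation test gave p = 0.7.

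GATA3, a zinc finger protein needed in the mouse for fiber cells to leave the cell cycle and survive, was low in untreated cells and lower still with DMOG. It read 2.51, 1.57 and 1.84 FPKM without DMOG and 0.60, 0.12 and 0.19 FPKM with it. The gap between the groups was wider than the range within either group. The mean was 0.303 ± 0.259 FPKM with DMOG and 1.97 ± 0.484 FPKM without it (SD, n = 3 each). GATA3 fell by 1.65 on the log2 scale (SE 0.48, 95% interval -2.77 to -0.54), with an adjusted p = 0.360 in limma and p = 0.1 in the exact permutation test. The call held in all 14 alternatives that tested GATA3. Its size depended on the pseudocount, from -2.52 at 0.1 FPKM to -1.20 at 1 FPKM. SIX4 and GATA3 also had the same order of libraries inside the DMOG group, with library 1 highest and library 2 lowest. For GATA3 that order rests on 0.12 against 0.19 FPKM in libraries 2 and 3. How many other loci share the order was not counted.

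**Figure D2:**
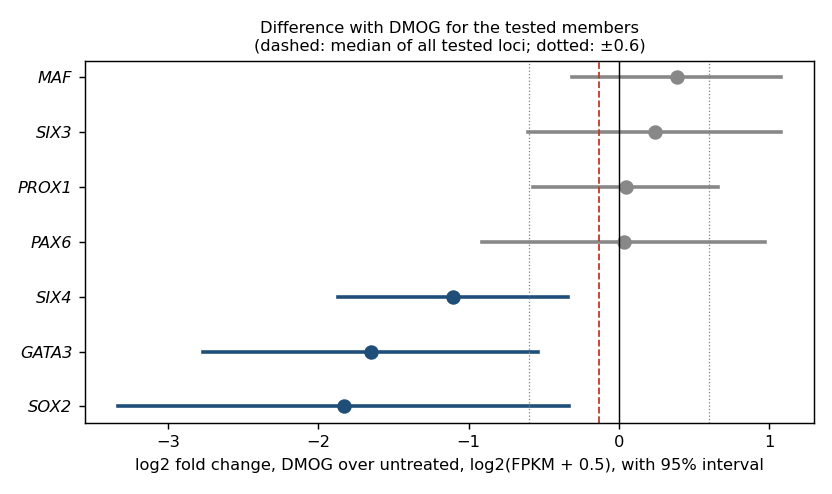
Log2 fold change (horizontal axis, DMOG over untreated, on log2(FPKM + 0.5)) of the 7 tested factors from limma, with 95% intervals as bars; blue marks those past the limits of the study, dotted lines stand at 0.6 and -0.6, and the dashed line is the median of all tested loci, -0.13. SIX4, GATA3 and SOX2 lie between -1.10 and -1.83, and the intervals of MAF, SIX3, PROX1 and PAX6 all hold 0.

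In whole cultures, fewer cells of a type and less RNA per cell cannot be told apart for any of these genes. Summed immune markers ranged from 5.25 to 8.56 FPKM with DMOG and from 8.24 to 10.64 FPKM without it. Most of that sum came from a locus that joins PTPRC with NEK7, a widely expressed kinase gene, so PTPRC itself is not resolved, and the single-gene marker CSF1R stood between 0.62 and 1.48 FPKM. Summed endothelial markers ranged from 8.18 to 10.73 and from 8.29 to 15.03 FPKM. None of the 4 was listed at 0 throughout, but KDR was listed at 0 in DMOG library 3. Summed mesenchymal and corneal markers ranged from 4.99 to 8.73 and from 6.61 to 10.35 FPKM, with 2 of the 9 listed at 0 throughout. The part of these markers in the lower values of SIX4, GATA3 and SOX2 was not tested. Loci listed at 0 made up between 25.2% and 35.9% of a library, with DMOG library 3 highest and untreated library 3 lowest, and small RNA loci held between 24.0% and 37.4% of the FPKM.

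A second pattern ran across the groups and was noticed only after the values were seen. PAX6, SIX3 and MAF, 3 of the 9 members, had the same 3 libraries on top, DMOG libraries 1 and 2 and untreated library 3. Of the 5 most abundant lens target genes, 4 had the same 3 libraries on top, and of the 5 most abundant other regulators 2 had, SOX3 and SMARCA4. Over all tested loci the share was 13.7%. CRYAA, the αA-crystallin gene, stood at 863.66, 841.05 and 599.16 FPKM with DMOG and at 791.72, 719.17 and 962.10 FPKM without it. CRYAB, which encodes αB-crystallin, stood at 236.47, 248.48 and 152.33 FPKM and at 147.98, 133.25 and 257.63 FPKM. CRYBA2 was the exception among the 5. PROX1 ran the other way, with its lowest value in untreated library 3 and its next lowest in DMOG library 2. DMOG library 3 and untreated library 3 also had the lowest and the highest median FPKM over the tested loci. These were 0.872 and 1.13 times the geometric mean of the 6 medians, and the part of this in the pattern was not tested.

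**Figure D3:**
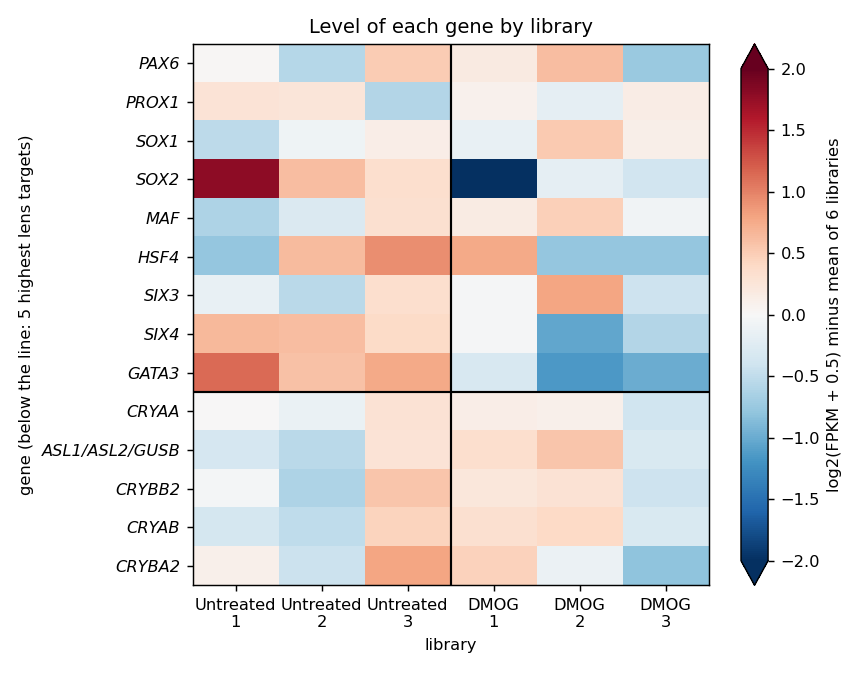
Log2(FPKM + 0.5) of each gene minus its mean over the 6 libraries (colour, from -2 to 2, with arrows for values beyond), for the 9 factors above the horizontal line and the 5 most abundant lens targets below it; columns are libraries, untreated on the left. PAX6, SIX3 and MAF share their 3 highest libraries with 4 of the crystallin loci, while SIX4, SOX2 and GATA3 are higher in the 3 untreated columns.

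Each factor belongs to a family, and the other members of those families give the setting. The 8 families held 43 loci in the table, of which 11 were listed at 0 in all 6 libraries and 22 were tested. PAX6 was the highest PAX gene, PROX1 the only PROX locus, SIX3 the highest of its family and GATA3 the highest GATA gene in untreated cells. MAFA, which encodes L-Maf, the large MAF protein that induces crystallins in the chick, was the highest MAF gene at 16.4 FPKM, above MAF at 5.72 FPKM. SOX4 led the SOX genes at 32.9 FPKM, and HSF2 the heat shock factors at 10.3 FPKM. SIX6, a relative of SIX3, was listed at 0 throughout. Of the 22 tested family loci, 4 were lower at the limits and 0 were higher, namely the members SIX4, SOX2 and GATA3 and, among the 15 tested non-members, HSF2. Over all tested loci 4.97% were lower and 2.84% higher, and as above SOX2 and GATA3 were tested only through their untreated values. The median log2 fold change over the 22 was -0.07.

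A wider list of 34 other regulators of lens and eye was described in the same fit. Rows were found for 30, of which 21 were tested, 1 was higher and 1 was lower at the limits, and the median log2 fold change was -0.07. Beside this, 2.84% of all tested loci were higher and 4.97% lower, and their median was -0.13. RARA, the retinoic acid receptor α gene, stood at 11.49, 14.87 and 7.78 FPKM with DMOG and at 3.65, 1.38 and 9.10 FPKM without it. It rose by 1.45 on the log2 scale (SE 0.56, limma adjusted p = 0.520), and the groups overlapped through untreated library 3. The call ended without DMOG library 1 (1.42), DMOG library 2 (1.24), untreated library 1 (1.44) or untreated library 2 (0.87).

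HSF2, a heat shock factor active in development, was the lower one. It stood at 8.11, 5.21 and 3.01 FPKM with DMOG and at 8.71, 11.68 and 10.55 FPKM without it, with no overlap. HSF2 fell by 0.95 on the log2 scale (SE 0.34, limma adjusted p = 0.484). The call ended without DMOG library 2 (-0.97), DMOG library 3 (-0.62), untreated library 2 (-0.86) or untreated library 3 (-0.93). HSF2 and HSF4 are of 1 family, but only HSF2 was abundant enough to test.

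The 5 most abundant of the wider list were MAB21L1, SOX11, MAFA, SOX3 and SMARCA4. MAB21L1, needed for the mouse lens placode, had 26.3 ± 2.72 FPKM with DMOG and 31.6 ± 9.96 FPKM without it (SD, n = 3 each). SOX11 stood lower in every DMOG library, at 18.85, 17.62 and 24.35 FPKM against 29.15, 33.42 and 24.92 FPKM, but its log2 fold change of -0.52 missed the limit of 0.6 (limma, adjusted p = 0.522). MAFA (-0.02), SOX3 (0.03) and SMARCA4 (-0.01), the gene of the chromatin remodeller BRG1, had log2 fold changes near 0. Of the 21 tested regulators, 4 had every DMOG library below every untreated one and 0 had every DMOG library above, beside 11.4% and 4.47% of all tested loci.

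Genes that these factors are known to control were described next, a list of 28 names, of which ASL, LIM2, CDKN1C and LCTL were matched to no locus and are not analysed here. The others fell on 23 loci, and 22 of these were tested. At the limits 1 target was higher and 1 lower, and the median of their log2 fold changes was 0.08. For comparison, 2.84% of the 9816 tested loci passed as higher and 4.97% as lower, and the median there was -0.13. Counts of 1 among 22 are too small to set the targets apart from that background. The 5 most abundant, CRYAA (-0.11), the locus of δ-crystallin that joins ASL1, ASL2 and GUSB (0.39), CRYBB2 (0.06), CRYAB (0.27) and CRYBA2 (-0.31), did not pass the limits in the log2 fold changes given. The genes of the joined locus cannot be told apart.

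CDKN1B, which encodes the cyclin-dependent kinase inhibitor p27 and lies downstream of Prox1 in mouse fiber cells, was the lower target. The study already names CDKN1B among its HIF1α-dependent genes, partly from these libraries. It stood at 8.92, 5.92 and 9.89 FPKM with DMOG and at 25.53, 16.76 and 29.28 FPKM without it. The groups did not overlap, and CDKN1B fell by 1.47 on the log2 scale (SE 0.28, limma adjusted p = 0.147), past the limits in all 15 alternatives. PROX1 itself did not pass them, GATA3 did, and a link of either gene to CDKN1B was not tested. FGFR3, a receptor for fibroblast growth factors, was the higher target, at 28.58, 32.51 and 20.41 FPKM with DMOG and 13.39, 11.62 and 23.78 FPKM without it. FGFR3 rose by 0.77 on the log2 scale (SE 0.31, limma adjusted p = 0.537), with overlap through untreated library 3. The FGFR3 call ended without DMOG library 1 (0.72), DMOG library 2 (0.63), untreated library 1 (0.66) or untreated library 2 (0.57).

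For each of the 3 lower factors, the tested single-gene loci with the most similar values were listed by Pearson's r over the 6 libraries on log2(FPKM + 0.5), as a description among 8569 candidates. The points are the same 6 libraries for every pair and share their treatment, so no p is given. Most similar to SIX4 were RFNG, a glycosyltransferase of Notch receptors (0.996), PPP3CA, a catalytic subunit of calcineurin (0.996), and RFX3, a regulator of cilia genes (0.994). RFNG stood at 7.97, 3.19 and 5.28 FPKM with DMOG and at 13.62, 12.24 and 11.14 FPKM without it. Most similar to GATA3 were COX20, a cytochrome c oxidase assembly factor, FAM46A, a poly(A) polymerase, and ANKRD28, with r between 0.989 and 1.00. COX20 stood at 3.63, 3.04 and 3.14 FPKM with DMOG and at 4.96, 4.37 and 4.52 FPKM without it, a narrower spread than that of GATA3. Most similar to SOX2 were S100A4, a calcium-binding protein, CBLL1, an E3 ubiquitin ligase, and ACOT9, an acyl-CoA thioesterase, with r between 0.984 and 0.989. All 3 were lowest in DMOG library 1 and highest in untreated library 1, as SOX2 was, which choosing them by r with SOX2 favours. Members that were not called had loci as similar, with r up to 0.993 for PAX6 and 0.998 for SIX3.

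**Figure D4:**
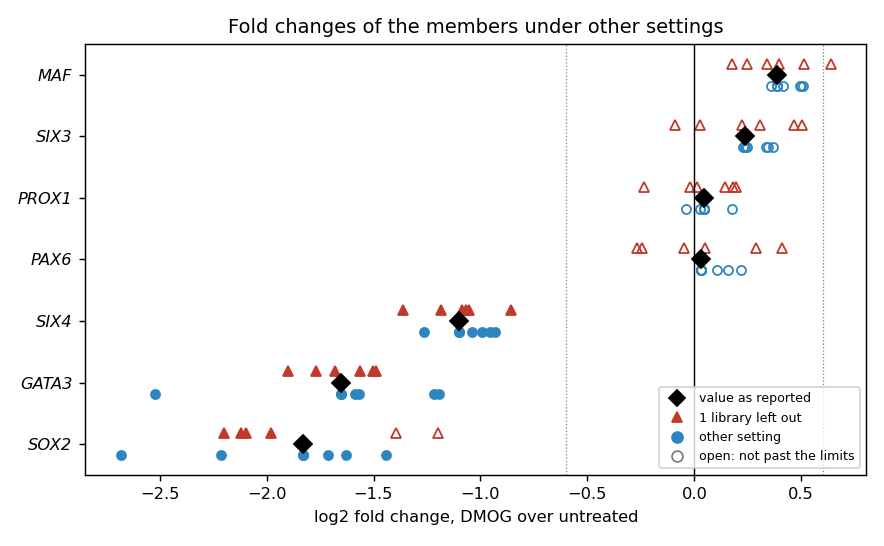
Log2 fold change (horizontal axis, DMOG over untreated) of the 7 tested factors. Black diamonds are the values as reported, red triangles have 1 library left out, and blue circles are other settings. Triangles and circles are filled where past the limits of the study and open where not, while diamonds are always filled. SIX4 and GATA3 stayed past the limits throughout, SOX2 lost the call in 2 fits with a library left out, and PAX6, PROX1 and SIX3 crossed 0.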

How the data were processed

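RNA-seq was analysed in 3 DMOG and 3 untreated libraries from primary chick lens cells. The authors trimmed reads with Cutadapt, aligned them to galGal6 with Bowtie2 and HISAT2, assembled transcripts with StringTie, and deposited FPKM per locus and library. Tool versions are not given in the sources used here. The table's further columns, the authors' fold changes, log2 ratios and p-values, were not used. FPKM gives no read depth, and low values showed no steps of whole reads, so precision rests on the spread between replicates.

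Here log2(FPKM + 0.5) was fitted for the 9816 loci averaging 1 FPKM or more, using limma 3.58.1 (R 4.3.3) with a mean-variance trend and treatment as the only term, with Benjamini-Hochberg adjustment over all tested loci. Members under the filter were compared with an exact permutation test of mean FPKM. The fit was tested on simulated data, with changes placed only at loci of higher mean log2 level than SIX4, SOX2 and GATA3. That test therefore does not cover differences at the levels of these genes. Alternatives were pseudocounts of 0.1 and 1 FPKM, no filter, a filter at 5 FPKM, quantile normalization, scaling to equal medians, array weights, a replicate block, small RNA loci left out, and each library left out. Named were all members, the 5 most abundant untreated and every called gene of each further list, the highest gene of each family, and the 3 loci most similar to each called member. Further genes (SIX6, the family relatives in the closing section, and marker genes) were named after their values were seen. Some genes that these rules would name are not reported here. Members and lists were chosen with earlier results of these data known.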

Additional observations from a re-analysis of the deposited data

How the results depend on the processing

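SIX4, GATA3 and CDKN1B kept their calls in every alternative that tested them, and MAF was called in none of 15, though its value reached 0.64 without untreated library 3. Among members, 3 were lower in each setting except a mean of at least 5 FPKM, where 4 members were tested and 0 were lower, and the fits without DMOG library 1 or untreated library 1, where SOX2 lost its call. With 1 library left out, PAX6 ranged from -0.27 to 0.41 and was below 0 in 3 such fits (DMOG 1, DMOG 2, untreated 2), PROX1 ranged from -0.24 to 0.19 and was below 0 in 2 (DMOG 3, untreated 3), and SIX3 ranged from -0.092 to 0.50 and was below 0 in 1 (DMOG 2). PROX1 was also below 0 with array weights (-0.041). Same-numbered libraries did not deviate together (r of -0.11, -0.17 and -0.23), so the numbers were not taken as pairs. With a replicate block, the members' 3 calls held, 0 other regulators and 0 lens targets were higher and 2 lens targets lower, and 225 loci were higher and 371 lower overall. With array weights 2 lens targets were lower. At a mean of at least 5 FPKM, 183 loci were higher and 231 lower, against 279 and 488 as reported, with fewer loci tested (5539). Lower loci numbered 323 with median scaling, which moves the median of all loci from -0.13 to -0.01, and 320 with quantile normalization. Leaving out 1 library gave from 0 to 2 other regulators higher and from 0 to 1 lower, from 0 to 3 lens targets higher and from 1 to 2 lower, and from 328 (without untreated library 1) to 774 (without DMOG library 1) loci lower. Where no construction shows it, the cause was not tested. Depth is unknown, so for SOX1, SOX2, HSF4 and GATA3 counting error cannot be told from spread between libraries.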

Other observations

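The 3 SOXB1 genes can be added up, since they encode closely related proteins and FPKM is a level per length. SOX3, the most abundant of them, stood at 21.20, 15.52 and 10.63 FPKM in DMOG libraries 1, 2 and 3 and at 13.12, 10.22 and 24.54 FPKM in untreated libraries 1, 2 and 3. The summed level of SOX1, SOX2 and SOX3 was 21.97, 18.54 and 12.89 FPKM with DMOG and 20.92, 14.02 and 27.96 FPKM without it, so the groups overlapped in the sum although they did not in SOX2. SOX2 made up 35.0%, 21.2% and 8.48% of the sum in untreated libraries 1, 2 and 3. With DMOG it made up 8.09% and 9.54% in libraries 2 and 3 and is listed at 0 in library 1. The shares overlapped between the groups, because untreated library 3 lay among the DMOG libraries, and no test was made of them.

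Among the family relatives that were not members, MAFF and HSF3 had log2 fold changes beyond 0.6 in size but did not pass the limit on p. MAFF, a small MAF protein that lacks a transactivation domain, stood at 4.80, 10.92 and 4.74 FPKM with DMOG and at 7.73, 15.32 and 16.15 FPKM without it, with a log2 fold change of -0.92 (limma, adjusted p = 0.561). HSF3, the heat shock factor described first in birds, stood at 4.96, 2.25 and 4.97 FPKM with DMOG and at 5.47, 9.82 and 6.51 FPKM without it, with a log2 fold change of -0.80 (limma, adjusted p = 0.565). The HSF3 libraries did not overlap between the groups, and those of MAFF did.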
